A study of Mus musculus with 17 samples.

Results

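The classical complement pathway was followed through 8 genes in glomeruli-enriched mouse kidney cortex: C1qa, C1qb, C1qc, C1ra, C1s1, C4b, C2 and Serping1. They were chosen by name, as the genes of the C1 complex, its next substrates and its inhibitor, and each was found in the deposited table of read counts, which holds 53379 genes. RNA was sequenced from 17 mice of the BTBR strain. Of these, 7 were obese, diabetic ob/ob mice that drank water with atrasentan, which blocks the endothelin A receptor, at a daily dose of 5 mg/kg. A further 5 were ob/ob mice given saline, and 5 were wild type BTBR mice with no treatment named. Treatment began at 18 weeks of age and lasted 6 weeks, so both ob/ob groups were studied at 24 weeks, and wild type mice were killed at the same age. The ob/ob mice carry the Lepob mutation, which removes leptin from the whole animal. The atrasentan group's genotype label is BTBR ob, the saline group's is ob/ob-d30 and the third group's is WT-d30, and no source used here says what d30 stands for. The comparisons ask what differs after endothelin A receptor blockade in the diabetic kidney and what differs in the diabetic kidney itself, and they set the treated kidney against the wild type one.

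In the classical pathway C1q, a bundle of A, B and C chains, binds antibody on a target or other ligands such as pentraxins and dying cells. Binding activates the attached proteases C1r and C1s. C1s then cuts C4 and C2, whose fragments join into the C3 convertase, and the C1 inhibitor encoded by Serping1 traps C1r and C1s. Most complement protein in plasma comes from the liver, but C1q is made mainly by macrophages and dendritic cells, and resident kidney cells make several of the other components.

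Gene reads per library numbered 37252939 to 52528747 with atrasentan, 35938445 to 40268662 with saline and 29161833 to 40965108 in wild type. Each library is 1 animal as far as the labels show, so the errors below are between these samples. Fewer genes had a read with atrasentan (21396 to 23081) than with saline (24335 to 25313) or in wild type (23901 to 24877). The tissue was checked with marker lists. All 12 podocyte markers had reads in every library, and their summed level was 2237 to 5259 CPM with atrasentan, 4745 to 9915 CPM with saline and 8863 to 14285 CPM in wild type, where CPM is a gene's reads as a share of its library's gene reads, on a scale shared by all libraries and with TMM-scaled library sizes. The 12 markers of glomerular endothelium also had reads in every library and were higher with atrasentan. They summed to 14470 to 18718 CPM with atrasentan, 9965 to 13012 CPM with saline and 11259 to 12900 CPM in wild type. Proximal tubule cells are not glomerular, yet their 12 markers together reached 229 to 1761 CPM with atrasentan, 2379 to 10811 CPM with saline and 1400 to 2998 CPM in wild type. The 2 saline libraries with the most, numbers 1 and 3, held 10811 and 10807 CPM. In the sample titles the groups occupy separate runs of sample numbers, and the labels do not say whether those follow the order of preparation. If they do, preparation order and group cannot be told apart. The library numbers used here are not those of the titles: they count the deposited samples of each group in order.

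Most genes at the head of the pathway were higher with atrasentan, and C2 went the other way. All 8 genes were tested with edgeR's quasi-likelihood test over 17766 genes, and a gene is said to have risen or fallen where its Benjamini-Hochberg adjusted p was under 0.05. With atrasentan against saline 6 of the 8 rose and C2 fell, where 15.3% of all genes rose and 18.5% fell, 33.8% in all. Atrasentan mice against wild type mice showed 7 of the 8 risen and none fallen (the edgeR p of C2 was 0.0696 before adjustment), where 14.7% of all genes rose, 14.5% fell and 29.2% changed. In the saline group against wild type C4b and C2 rose and none fell, where 3.21% of all genes rose, 1.91% fell and 5.12% changed. The median log2 fold change of the 8 genes was 1.43 for atrasentan over saline, 1.57 for saline over wild type and 1.63 for atrasentan over wild type, beside -0.0051, 0.0056 and -0.0088 over all genes tested. These comparisons share libraries, so their values stand side by side and are not independent.

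**Figure D1:**
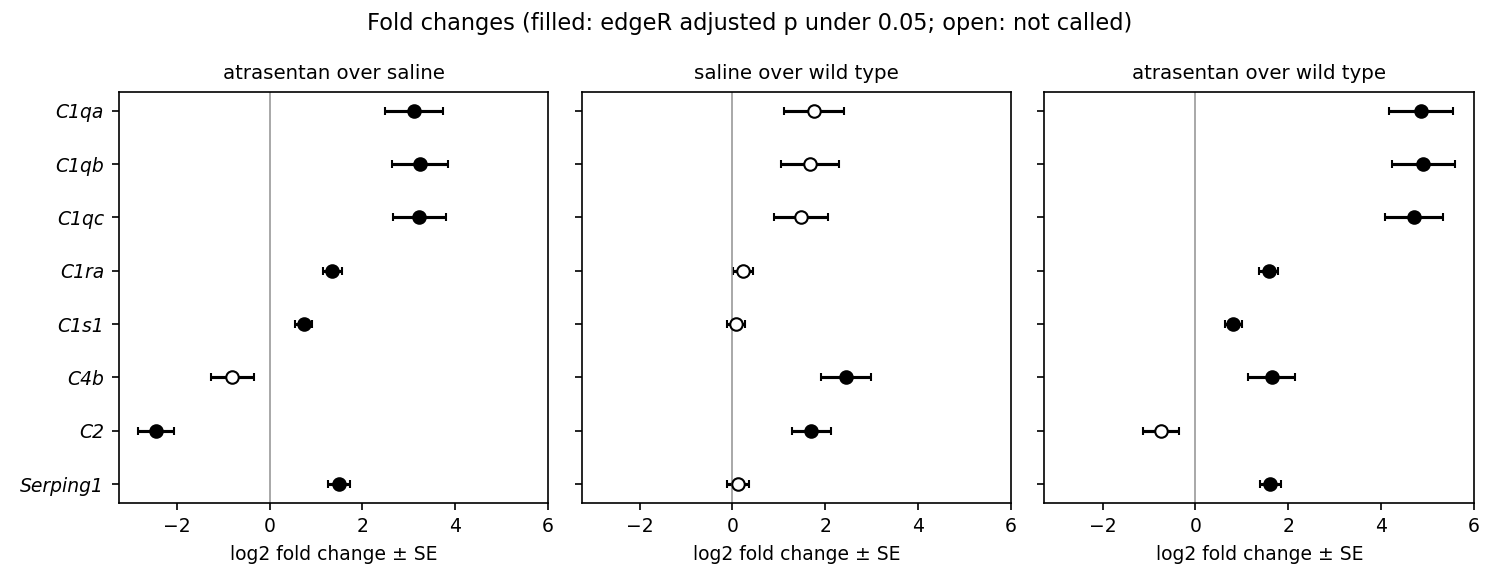
Fitted log2 fold change of each of the 8 genes with its standard error (bars), for atrasentan over saline, saline over wild type and atrasentan over wild type; filled points have an edgeR adjusted p under 0.05. The 3 C1q chains lie near 3 for atrasentan over saline and near 5 for atrasentan over wild type, and C2 lies at -2.45 for atrasentan over saline.

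Whether the animals of a group overlap those of another was also counted. With atrasentan all libraries lay above all saline libraries for C1qa, C1qb, C1qc, C1ra and Serping1, and all lay below for C2, where 6.07% of all genes were apart upward and 5.76% downward. The same 5 genes were apart upward between atrasentan and wild type, where 6.16% of all genes were, and none of the 8 was apart downward, where 7.06% of all genes were. Between saline and wild type only the 3 C1q chains were apart, all upward, where 3.46% of all genes were apart upward and 3.96% downward.

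The 3 C1q chains lie side by side on the minus strand of chromosome 4 in GRCm38: C1qb at chr4:136880129-136886187, C1qc at chr4:136889804-136893065 and C1qa at chr4:136895917-136898803. No stretch of 50 bases of their main coding transcripts occurs in another gene's transcript, so reads of the sequenced length are particular to each. RefSeq promoter windows (300 bases that end 50 bases after the start site, GRCm38.p6, minus strand) were at hand for C1qb (chr4:136886151-136886450) and C1qc (chr4:136892865-136893164), and are shown because these genes moved together. Capitals in C1qc mark the letters ACTTCCTC, the reverse complement of GAGGAAGT, a form of the PU.1 motif, 195 bases before the start site.
C1qb: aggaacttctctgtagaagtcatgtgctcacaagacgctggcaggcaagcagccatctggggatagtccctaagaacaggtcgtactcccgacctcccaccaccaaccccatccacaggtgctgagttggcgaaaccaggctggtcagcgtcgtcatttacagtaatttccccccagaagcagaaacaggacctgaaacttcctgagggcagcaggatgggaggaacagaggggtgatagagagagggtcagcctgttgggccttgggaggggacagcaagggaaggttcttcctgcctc
C1qc: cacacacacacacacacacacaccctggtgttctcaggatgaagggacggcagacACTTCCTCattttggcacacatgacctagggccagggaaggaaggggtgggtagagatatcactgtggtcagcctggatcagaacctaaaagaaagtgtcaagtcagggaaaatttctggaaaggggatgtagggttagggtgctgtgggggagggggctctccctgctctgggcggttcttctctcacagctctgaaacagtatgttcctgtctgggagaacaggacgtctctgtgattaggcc
PU.1 is a transcription factor of myeloid cells. Its letters, sought on both strands, occur in 3.11% of 32544 promoter windows of this length, and the C1qb window holds none of the motifs searched. A match is a description of letters and shows no binding.

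C1qa encodes the A chain. With atrasentan its level was 29.4, 9.96, 170.5, 44.7, 25.1, 23.5 and 22.4 CPM in libraries 1 to 7, against 9.40, 3.13, 5.79, 3.39 and 5.28 CPM in saline libraries 1 to 5. Wild type libraries 1 to 5 held 2.33, 1.75, 2.40, 0.791 and 0.648 CPM. Atrasentan library 3 stood far above the other 6, atrasentan library 2 was the lowest of its group and close to saline library 1, and the 3 groups did not overlap. C1qa averaged 46.5 ± 55.6 CPM with atrasentan (SD, n = 7) and 5.40 ± 2.52 CPM with saline (SD, n = 5), an 8.61-fold rise (log2 fold change 3.11 ± 0.63, SE, edgeR adjusted p = 0.00154). Against 1.58 ± 0.829 CPM in wild type (SD, n = 5), the rise with atrasentan was 29.2-fold (log2 fold change 4.87 ± 0.70, SE, edgeR adjusted p = 0.000101). In tissue RNA such as this, fewer cells of a type and less RNA per cell cannot be told apart.

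C1qb, which encodes the B chain, had the same shape. Its level with atrasentan was 35.5, 17.4, 233, 54.5, 38.3, 25.9 and 28.1 CPM, against 11.0, 3.61, 7.81, 3.87 and 6.29 CPM with saline. In wild type it was 2.50, 2.62, 2.56, 1.40 and 1.12 CPM. Library 3 was again highest and library 2 lowest with atrasentan, and library 1 was highest with saline. C1qb rose 9.50-fold with atrasentan against saline (log2 fold change 3.25 ± 0.61, SE, edgeR adjusted p = 0.000953) and 30.2-fold against wild type (log2 fold change 4.92 ± 0.67, SE, edgeR adjusted p = 6.9e-05).

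C1qc, which encodes the C chain, had 33.5, 17.5, 218, 49.0, 41.9, 28.6 and 24.3 CPM with atrasentan, against 10.5, 4.64, 7.01, 4.40 and 4.91 CPM with saline. In wild type it had 2.37, 3.23, 2.31, 1.31 and 2.03 CPM. The groups did not overlap, and the order of libraries within the atrasentan group was nearly that of C1qb. The rise with atrasentan was 9.37-fold against saline (log2 fold change 3.23 ± 0.58, SE, edgeR adjusted p = 0.000693) and 26.2-fold against wild type (log2 fold change 4.71 ± 0.63, SE, edgeR adjusted p = 5.9e-05).

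**Figure D2:**
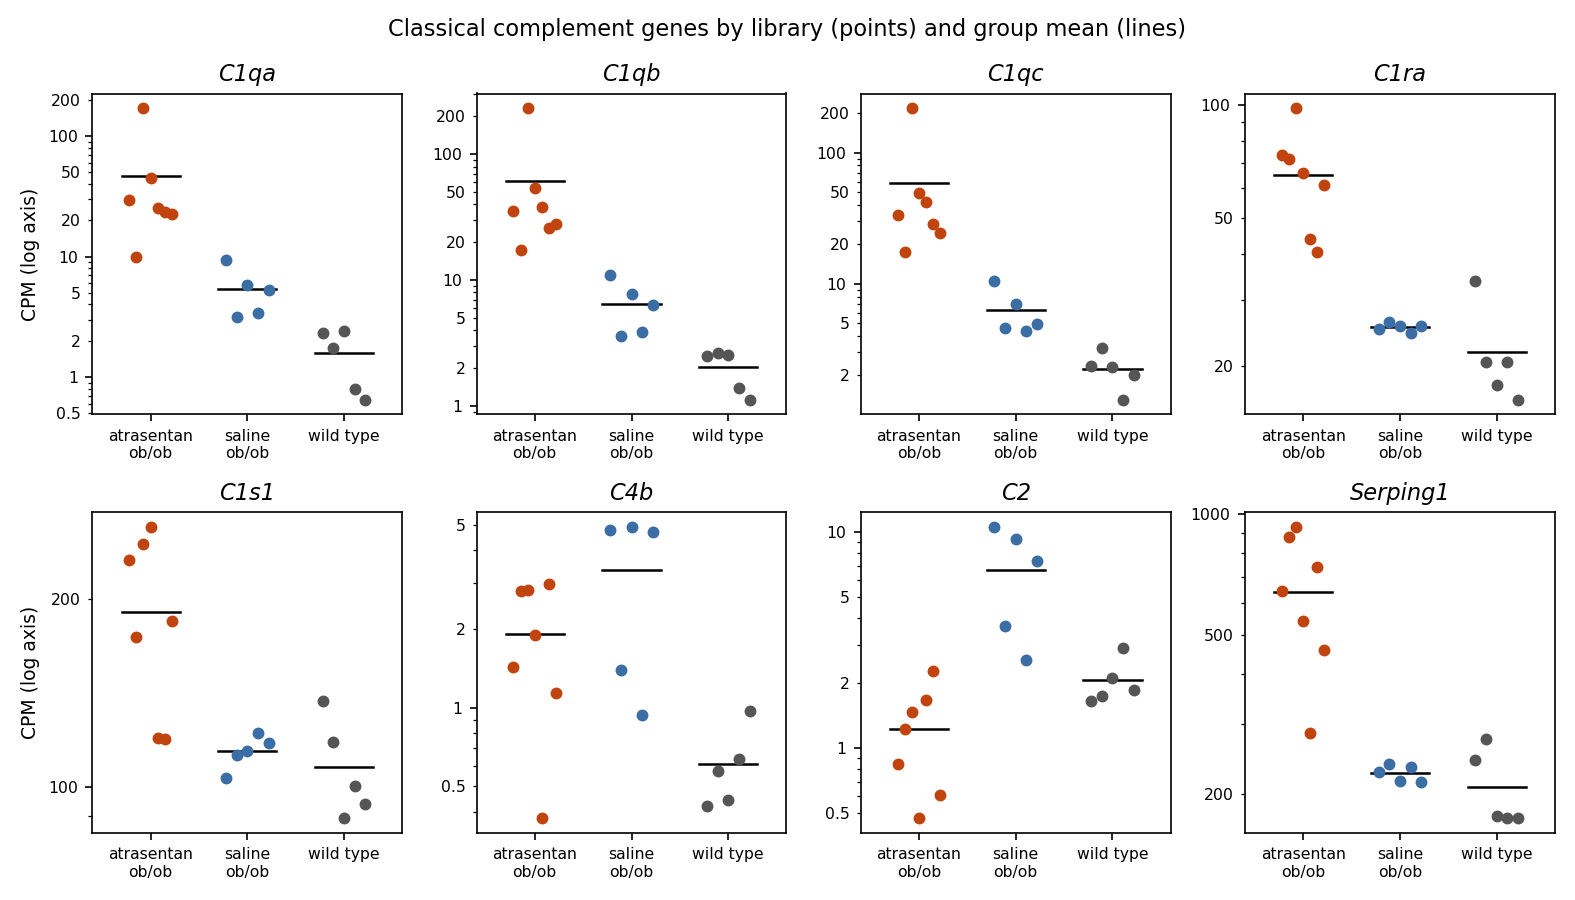
Level of each of the 8 genes (CPM, log axis) in every library (points) with the group mean (lines), for atrasentan, saline and wild type. The C1q chains step down over the 3 groups without overlap, C1ra and Serping1 are apart only with atrasentan, and C2 is lowest with atrasentan.

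Atrasentan library 3 alone held much of the size of the C1q change. Without it the log2 fold changes of C1qa, C1qb and C1qc were 2.26, 2.36 and 2.37 for atrasentan over saline and 4.02, 4.02 and 3.85 for atrasentan over wild type, and all passed the test. Between saline and wild type the log2 fold changes were 1.76 ± 0.65, 1.67 ± 0.62 and 1.48 ± 0.58 (SE), and the edgeR adjusted p-values of 0.116, 0.121 and 0.141 missed the threshold although the libraries did not overlap. Those p-values were 0.0307, 0.0185 and 0.0176 when atrasentan library 3 was left out of the shared estimate of spread, and 0.0326, 0.0237 and 0.0205 when saline and wild type were fitted alone. DESeq2 called C1qb and C1qc, with adjusted p-values of 0.0281 and 0.0421. Other alternatives lowered these values: the log2 fold changes of C1qa, C1qb and C1qc were 1.29, 1.15 and 1.04 without saline libraries 1 and 3 (adjusted p = 0.60, 0.629 and 0.654), and 0.80, 0.47 and 0.33 with the glomerular share, podocyte minus proximal tubule marker level, as a covariate (adjusted p = 0.883, 0.931 and 0.951). That covariate raised the log2 fold changes for atrasentan over saline to 3.83, 4.16 and 4.09 (adjusted p = 0.0135, 0.00834 and 0.00602). Its marker lists differed between groups: of 12 podocyte markers 5 fell in saline against wild type mice and 6 with atrasentan against saline. The share is therefore no measure of the glomeruli in a sample alone, and fits with it cannot separate group from marker level.

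The chains kept a common proportion. Of the summed C1q level per kilobase of exon, C1qa made up 33.7 ± 3.65% in atrasentan mice, 35.8 ± 1.60% in saline mice and 31.7 ± 7.17% in wild type mice (SD). C1qb made up 42.8 ± 2.22%, 41.0 ± 2.51% and 41.4 ± 3.50% in atrasentan, saline and wild type mice, and C1qc 23.5 ± 2.27%, 23.2 ± 3.24% and 26.9 ± 7.53%. The mean shares of the groups differed by less than the SD within wild type. The size of the C1qc share depends on the length used, 1931 bases of annotated exon against 1203 in its main coding transcript. Without scaling by length, C1qc was near C1qb, at means of 59.0 and 61.9 CPM with atrasentan. Over all 17 libraries the deviations from the group means of log2 CPM had r = 0.97 between C1qa and C1qb, 0.95 between C1qb and C1qc and 0.91 between C1qa and C1qc, as a description of points that share libraries.

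Macrophage markers moved with C1q. Of 16 of them, which include Adgre1, Csf1r and Cd68, 12 rose and none fell with atrasentan against saline (median log2 fold change 1.24), and 10 rose and none fell against wild type (median 1.17). Between saline and wild type 0 of the 16 were called by edgeR and 0 had an unadjusted p under 0.05, and their median log2 fold change was -0.14. Their summed level was 572 to 1537 CPM with atrasentan, 346 to 627 CPM with saline and 363 to 891 CPM in wild type, and no marker was at 0 in any library. Their part in the C1q result was not tested as a cause. With the macrophage marker mean as a covariate the log2 fold changes for atrasentan over saline were 1.35, 1.42 and 1.49 for C1qa, C1qb and C1qc, and the edgeR adjusted p-values of 0.232, 0.164 and 0.124 no longer passed. Those for atrasentan over wild type were 2.92, 2.91 and 2.86 and still passed, with adjusted p-values of 0.0258, 0.0155 and 0.0115.

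Within the 7 atrasentan libraries the C1q chains followed these markers. Pearson's r between log2 levels was 0.92 for C1qa, 0.93 for C1qb and 0.91 for C1qc (exact two-sided permutation p = 0.00119, 0.00357 and 0.00813, adjusted over the 3 genes to 0.00357, 0.00536 and 0.00813). Spearman's rho was 0.93, 0.89 and 0.86 (exact permutation p = 0.00675, 0.0123 and 0.0238, adjusted to 0.0185, 0.0185 and 0.0238). Without libraries 1 and 3, the farthest from the median of the markers, r over the other 5 was 0.80, 0.89 and 0.83. These correlations used the mean log2 level of the markers, whereas the sums below are of CPM and lean on Lyz2 and Mrc1. With saline those 2 genes averaged 171 and 103 CPM, of a mean sum of 465 CPM. In wild type they averaged 260 and 126 CPM, of a mean sum of 580 CPM. By the sum, C1q and the markers parted outside the atrasentan group. Wild type libraries 4 and 5 had the most marker RNA of their group, 743 and 891 CPM, and the least C1qa. Saline library 1 had the least marker RNA of its group, 346 CPM, and the most C1q. Summed C1q was 0.0712 to 0.405 of the summed marker level with atrasentan, 0.0250 to 0.0893 with saline and 0.0043 to 0.0200 in wild type, so the ratio did not overlap between saline and wild type or between atrasentan and wild type, while atrasentan and saline overlapped through saline library 1. C1qa relative to Csf1r, the receptor for the macrophage growth factor CSF-1, was 0.242 to 1.72, 0.102 to 0.336 and 0.0163 to 0.143 in atrasentan, saline and wild type libraries.

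**Figure D3:**
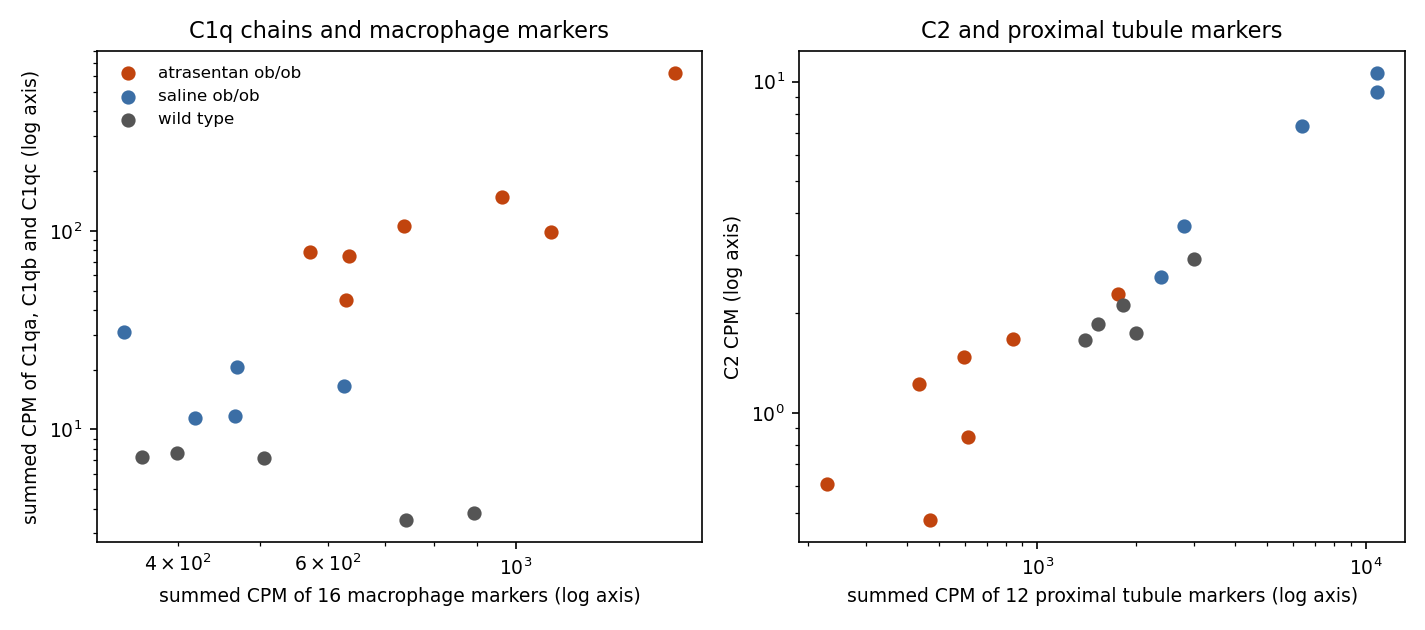
Left, summed level of C1qa, C1qb and C1qc against the summed level of 16 macrophage markers; right, level of C2 against the summed level of 12 proximal tubule markers (all CPM, log axes; 1 point per library, coloured by group). Atrasentan libraries lie above the others at like marker levels on the left, and on the right the points of all groups lie along 1 band.

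By the correlation of deviations from group means over 17 libraries, among 17758 genes, those most like the C1q chains were H2-M2 (r = 0.93), M6pr (0.91), Slamf9 (0.90), Plekhf1 (0.88) and C3ar1 (0.87). C3ar1 encodes the receptor for the complement fragment C3a.

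C1ra and C1s1 encode the proteases of C1. They lie next to each other on chromosome 6, C1ra on the plus strand at chr6:124512405-124523443 and C1s1 on the minus strand at chr6:124530345-124542359, and each has a near copy further along, C1rb at chr6:124570294-124581171 and C1s2 at chr6:124624625-124636085. Aligned over 2118 coding bases, C1ra and C1rb are identical at 98.0% and differ at 42. C1s1 and C1s2 are identical at 95.7% of 2082 and differ at 90. Of all 50-base stretches of the C1ra transcript, 48.0% also occur in C1rb, and 24.3% of those of C1s1 also occur in C1s2. Reads from such stretches align to both genes and were not counted, so the levels of these genes are uncertain, and calls to either copy rest on bases that differ. A stretch of coding bases 1444 to 1533 is shown because it carries 8 of the differences around an identical core, with the differing bases in capitals, read from the reference genome (GRCm38).
C1ra: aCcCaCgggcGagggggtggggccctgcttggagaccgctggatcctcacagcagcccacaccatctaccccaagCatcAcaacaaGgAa
C1rb: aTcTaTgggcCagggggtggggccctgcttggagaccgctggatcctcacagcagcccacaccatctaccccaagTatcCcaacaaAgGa

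C1ra, the protease that activates C1s, had 73.6, 71.9, 98.3, 65.7, 43.9, 40.6 and 61.3 CPM with atrasentan, against 25.1, 26.3, 25.7, 24.5 and 25.7 CPM with saline. In wild type it had 33.9, 20.5, 17.8, 20.5 and 16.3 CPM. All 7 atrasentan libraries lay above the 10 others, the saline libraries were nearly equal, and wild type library 1 stood above its group. C1ra rose 2.55-fold with atrasentan against saline (65.0 ± 19.5 CPM and 25.5 ± 0.668 CPM, SD, log2 fold change 1.35 ± 0.21, SE, edgeR adjusted p = 0.000297). Against wild type it rose 2.98-fold (log2 fold change 1.58 ± 0.21, SE, edgeR adjusted p = 5.6e-05). Between saline and wild type its log2 fold change was 0.22 ± 0.22 (SE, edgeR adjusted p = 0.611).

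C1s1, the protease that cuts C4 and C2, had 231, 174, 244, 261, 119.8, 119 and 184 CPM in the 7 atrasentan libraries, against 103, 113, 114, 122 and 118 CPM with saline. Wild type libraries had 138, 118, 89.1, 100.2 and 94.1 CPM. Atrasentan libraries 5 and 6 lay among the saline libraries, and the other 5 lay above all of them. C1s1 rose 1.67-fold with atrasentan against saline (log2 fold change 0.74 ± 0.18, SE, edgeR adjusted p = 0.0059) and 1.77-fold against wild type (log2 fold change 0.82 ± 0.18, SE, edgeR adjusted p = 0.00312). Between saline and wild type the log2 fold change was 0.081 ± 0.20 (SE, edgeR adjusted p = 0.864). The rise against saline was lost without saline libraries 1 and 3 (log2 fold change 0.70, adjusted p = 0.0614), and with the macrophage marker mean as a covariate (0.33, adjusted p = 0.387). It was also lost when the glomerular share was a covariate (0.42, adjusted p = 0.309). The rise against wild type was lost with the macrophage covariate (0.40, adjusted p = 0.328).

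C1s1 was lower relative to C1ra in every atrasentan library. The ratio of C1s1 to C1ra, per kilobase of exon, was 2.30 to 3.78 with atrasentan, 3.92 to 4.74 with saline and 3.87 to 5.51 in wild type, so atrasentan libraries did not overlap the others. In deviations from group means the pair moved together (r = 0.84 over 17 libraries). The genes most like the mean of both were Setbp1 (r = 0.84), Vegfc (0.84), Adamts5 (0.80), Aldh1a2 (0.79) and Nr2f2 (0.79). Of 10 mesangial and mural cell markers, 6 rose and none fell with atrasentan against saline (median log2 fold change 0.69), and their summed level was 8036 to 13682 CPM with atrasentan, 5461 to 7176 CPM with saline and 4914 to 6552 CPM in wild type. Of 8 fibroblast markers 6 could be tested, of which 2 rose and 1 fell, at summed levels of 113 to 337 CPM with atrasentan, 121 to 174 CPM with saline and 147 to 197 CPM in wild type. Lum, Dpt and Fbln1 were at 0 in some libraries. The part of these cells in the C1ra and C1s1 results was not tested.

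Atrasentan library 6 differed from every other library at the copies. C1rb had 31.2 CPM there, from 1095 reads, while the other 16 libraries together had 24 reads and at most 0.142 CPM. C1s2 had 2.02 CPM there, from 71 reads, against at most 0.453 CPM elsewhere. Among 13665 genes over 1 CPM in that library, C1rb and C1s2 were the 2 with the widest gaps to the highest of the other libraries, by 7.02 and 1.94 on the log2 scale, and the C1rb gap was the widest of any gene in any of the 17 libraries. The same library had the lowest C1ra and C1s1 of its group. C1ra and C1rb together reached 71.7 CPM there, in the middle of the atrasentan range of 44.0 to 98.4 CPM. Without library 6 the log2 fold change of C1ra for atrasentan over saline was 1.44 and that of C1s1 was 0.83, and both passed.

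**Figure D4:**
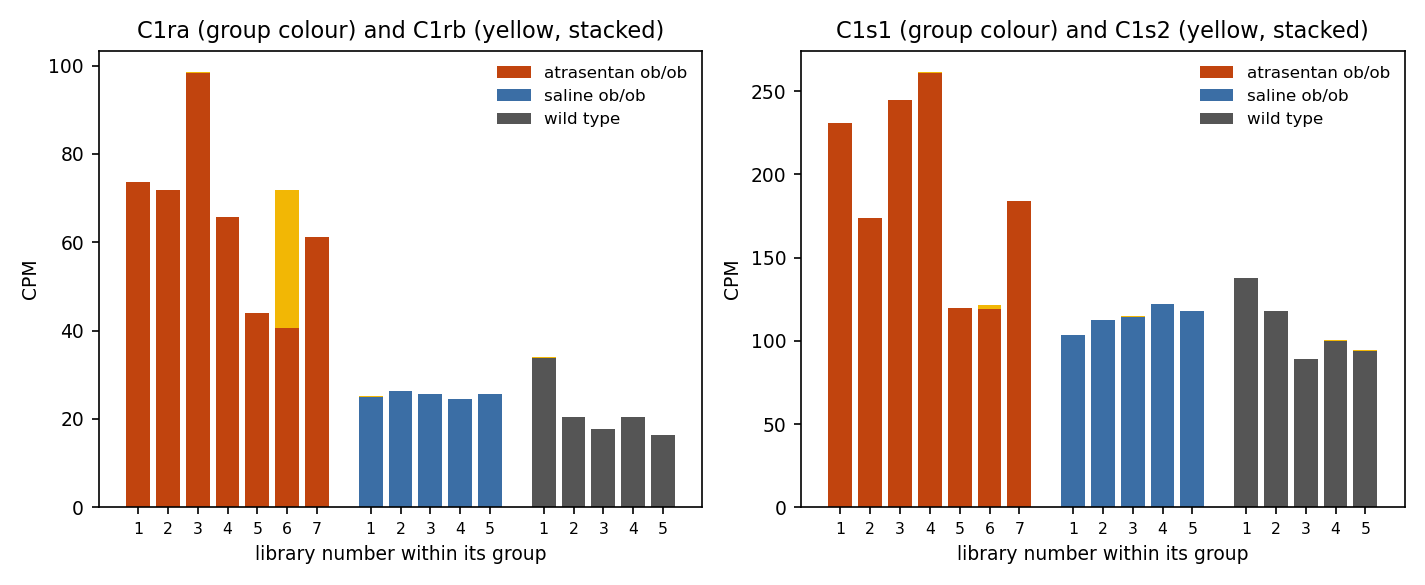
Level (CPM) of C1ra with C1rb stacked on it in yellow (left) and of C1s1 with C1s2 stacked on it in yellow (right), in every library. C1rb is visible only in atrasentan library 6, at 31.2 CPM.

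The RefSeq promoter window of C1ra (chr6:124512371-124512670, plus strand, GRCm38.p6) is shown for the letters TTCCCTGAA in capitals, 32 bases after the start site. They match TTCNNNGAA, the GAS motif bound by STAT factors, which reads the same on both strands and occurs in 8.33% of the 32544 windows.
C1ra: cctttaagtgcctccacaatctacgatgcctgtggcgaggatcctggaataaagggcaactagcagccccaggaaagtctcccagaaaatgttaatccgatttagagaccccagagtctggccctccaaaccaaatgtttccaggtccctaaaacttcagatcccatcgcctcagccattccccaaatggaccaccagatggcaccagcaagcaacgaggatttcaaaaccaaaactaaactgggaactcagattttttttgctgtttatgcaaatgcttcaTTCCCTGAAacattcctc
The C1s1 windows held no motif searched, which were GAS, PU.1 and the interferon-stimulated response element core (GAAA, any 2 bases, GAAA, either strand), found in 3.45% of windows. C1s1 also shares 576 exon bases with the antisense gene Gm16567, which had no read in any library. Of the 50-base stretches of the C1s1 transcript, 15.0% also occur in Gm16567, and 39.0% occur in C1s2 or Gm16567. Because the libraries were unstranded, C1s1 reads over the bases shared with Gm16567 may be missing from the counts. The level of C1s1 may therefore be too low, and the ratios that use it are uncertain.

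C4b and C2 are the substrates of C1s, and lie in the complement cluster of the major histocompatibility complex on the minus strand of chromosome 17, C4b at chr17:34728380-34743882 and C2 at chr17:34862604-34898265. Both were low in this tissue. C4b shares 35.2% of its 50-base stretches with C4a, its near copy, and C2 shares 58.0% with Gm20547, a gene model on the same strand that had no read in any library. Reads of the shared stretches may be missing from the counts, so the levels of C4b and C2 are uncertain. C2 also shares 161 exon bases with Zbtb12 on the other strand, which had 38 to 106 reads per library.

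C2, the protease part of the C3 convertase, had 0.845, 1.22, 1.47, 0.475, 1.67, 2.28 and 0.611 CPM with atrasentan, against 10.6, 3.66, 9.32, 2.57 and 7.35 CPM with saline. In wild type it had 1.66, 1.75, 2.12, 2.92 and 1.86 CPM. Every atrasentan library lay below every saline library, saline libraries 1, 3 and 5 were the 3 highest, and saline library 4 lay within the wild type range. C2 fell by 2.45 on the log2 scale with atrasentan against saline (1.23 ± 0.640 CPM and 6.70 ± 3.49 CPM, SD, SE of the log2 fold change 0.39, edgeR adjusted p = 0.000333). It rose 3.25-fold with saline against wild type, at 2.06 ± 0.510 CPM (log2 fold change 1.70 ± 0.42, SE, edgeR adjusted p = 0.0315). Between atrasentan and wild type its log2 fold change was -0.75 ± 0.39 (SE, edgeR adjusted p = 0.156).

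C4b encodes complement C4, whose larger fragment is the other part of that convertase. It had 1.43, 2.78, 2.80, 1.90, 0.378, 2.96 and 1.13 CPM with atrasentan, against 4.78, 1.40, 4.91, 0.938 and 4.70 CPM with saline. The wild type levels were 0.421, 0.573, 0.443, 0.639 and 0.973 CPM. The groups overlapped in all comparisons, and saline libraries 1, 3 and 5 stood above the other 2 as for C2. C4b rose 5.48-fold with saline against wild type (3.35 ± 1.997 CPM and 0.610 ± 0.222 CPM, SD, log2 fold change 2.45 ± 0.54, SE, edgeR adjusted p = 0.0205). It rose 3.13-fold with atrasentan against wild type (log2 fold change 1.64 ± 0.51, SE, edgeR adjusted p = 0.0217). For atrasentan over saline the log2 fold change was -0.81 ± 0.46 (SE, edgeR adjusted p = 0.184).

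The saline calls of C4b and C2 lay close to the threshold. Without saline libraries 1 and 3 the log2 fold changes over wild type were 1.92 for C4b (adjusted p = 0.195) and 1.12 for C2 (adjusted p = 0.351), and leaving out saline library 1 or 3 alone, or wild type library 1, 2 or 3 alone, ended both calls, with adjusted p-values between 0.0515 and 0.0935. In those fits the log2 fold changes stayed near the full values, at 2.26 to 2.43 for C4b and 1.45 to 1.71 for C2. The C2 call also ended without saline library 5 (log2 fold change 1.66, adjusted p = 0.0533) or wild type library 5 (1.66, adjusted p = 0.0825). The C4b call of atrasentan over wild type ended without wild type library 1 (log2 fold change 1.53, adjusted p = 0.0528) or 3 (1.55, adjusted p = 0.056), with the value close to the full 1.64.

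Proximal tubule markers moved with C2, and with C4b between saline and wild type. All 12 fell with atrasentan against saline (median log2 fold change -3.12), 4 rose and none fell in saline against wild type mice (median 1.92), and 8 fell and none rose with atrasentan against wild type (median -1.46), the comparison in which C4b rose. By library their summed level was 614, 435, 597, 471, 844, 1761 and 229 CPM with atrasentan and 10811, 2793, 10807, 2379 and 6375 CPM with saline, against 1400, 2001, 1817, 2998 and 1533 CPM in wild type. The libraries highest in C2 were highest in these markers in each group: saline libraries 1, 3 and 5, atrasentan library 6 and wild type library 4. Once the glomerular share was held as a covariate, the log2 fold change of C2 was -1.04 for atrasentan over saline, which still passed (adjusted p = 0.0303), and -0.12 for saline over wild type (adjusted p = 0.956). That of C4b was 0.47 for atrasentan over saline (adjusted p = 0.678) and 0.96 for saline over wild type (adjusted p = 0.798). The part of tubule RNA in these results was not tested as a cause. The genes most like C2 in deviations from group means were Nr1h4 (r = 0.97), which encodes the bile acid receptor, Gsta2 (0.95) and Ugt1a10 (0.95). Those most like C4b were Elovl6 (r = 0.88), Psat1 (0.86), Hsf2bp (0.86), 1700086P04Rik (0.86) and Cep19 (0.84).

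Serping1, at chr2:84765387-84775444 on the minus strand, encodes the C1 inhibitor and had the highest level of the 8 genes per kilobase in every group. It had 644, 877, 933, 542, 284, 739 and 459.9 CPM with atrasentan, against 228, 239, 216, 234 and 214 CPM with saline. Wild type mice had 243, 275, 176, 175 and 174 CPM. All atrasentan libraries lay above the 10 others, with library 5 close to wild type library 2, and the saline libraries were nearly equal. Serping1 rose 2.83-fold with atrasentan against saline (639.9 ± 231 CPM and 226 ± 10.7 CPM, SD, log2 fold change 1.50 ± 0.23, SE, edgeR adjusted p = 0.000311). Against wild type it rose 3.07-fold (log2 fold change 1.62 ± 0.23, SE, edgeR adjusted p = 0.000105). Between saline and wild type its log2 fold change was 0.12 ± 0.24 (SE, edgeR adjusted p = 0.838).

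Serping1 is known as an interferon-inducible gene. Of 16 interferon-stimulated genes all 16 rose with atrasentan against saline (median log2 fold change 1.07) and 12 rose and none fell against wild type (median 1.01). In saline against wild type mice 1 fell and none rose (median -0.065). Their summed level was 3330, 2754, 2394, 1008, 893, 1538 and 1335 CPM in atrasentan libraries 1 to 7, with library 5 lowest as for Serping1, against 632 to 1049 CPM with saline and 668 to 1108 CPM in wild type. The part of interferon in the Serping1 result was not tested. Most like Serping1 in deviations from group means were Parp3 (r = 0.93), Cxcl9 (0.90), a chemokine gene induced by interferon-gamma, and Ccnf (0.88).

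Relative to C1ra and C1s1, Serping1 was highest in atrasentan library 6. Serping1 over the sum of C1ra and C1s1, per kilobase, was 2.21 to 6.15 with atrasentan (median 2.81), 1.996 to 2.36 with saline and 1.89 to 2.66 in wild type. That library, at 6.15, is the one in which C1ra and C1s1 were lowest and C1rb was found, and library 2 was next at 4.74. The ratio leaves out C1rb, with which C1ra reached 71.7 CPM in library 6. Its height there thus depends in part on which copy the reads were assigned to. C1q changed against its proteases: the mean level of the chains over that of C1ra and C1s1, per kilobase, was 0.290 to 2.95 with atrasentan, 0.128 to 0.395 with saline and 0.0467 to 0.113 in wild type.

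Ordered by level per kilobase of exon (CPM per kb, mean ± SD), atrasentan mice had Serping1 at 275 ± 99.4, C1s1 at 60.9 ± 18.4, C1qb at 56.9 ± 70.3, C1qa at 44.7 ± 53.5, C1qc at 30.6 ± 36.8 and C1ra at 21.8 ± 6.55. C4b followed at 0.336 ± 0.173 and C2 at 0.316 ± 0.165. Only Serping1 and C1s1, and C1ra and C4b, were neighbours in that order whose libraries did not overlap. With saline the order was Serping1 (97.3 ± 4.59), C1s1 (36.4 ± 2.23), C1ra (8.54 ± 0.224), C1qb (5.98 ± 2.79), C1qa (5.19 ± 2.42), C1qc (3.26 ± 1.33), C2 (1.73 ± 0.902) and C4b (0.588 ± 0.351), and the first 3 were apart from each other. Wild type mice kept the saline order, with Serping1 at 89.8 ± 20.4, C1s1 at 34.4 ± 6.35, C1ra at 7.30 ± 2.35 and C1qb at 1.88 ± 0.663 apart from each other. Below them C1qa at 1.52 ± 0.798, C1qc at 1.16 ± 0.357 and C2 at 0.532 ± 0.132 overlapped their neighbours, and C4b at 0.107 ± 0.039 was apart from C2. These ranks use means, which atrasentan library 3 raises for the C1q chains with atrasentan: by median CPM per kb C1ra, at 22.04, lay above C1qc, at 17.4, within the limits that its near copy sets on C1ra counts. The length used takes in all annotated exons of a gene. For C1qc that is 1931 bases, against 1203 in its main coding transcript, and for C2 3872 against 2641. By transcript length both would stand higher, so the ranks of C1qc and C2 depend on the length used. The length of C2 also takes in 1656 exon bases shared with Gm20547, and that of C1s1 takes in 576 shared with Gm16567. Reads over those bases may be missing from the counts, which would lower both levels per kilobase.

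The other genes of the complement system were read from lists by role. Of 52 such genes 35 could be tested. With atrasentan against saline 10 rose and 7 fell (median log2 fold change 0.23), in saline against wild type mice 2 rose and 1 fell (0.20), and with atrasentan against wild type 9 rose and 9 fell (0.18). Over all genes tested 15.3% rose and 18.5% fell with atrasentan against saline. In saline against wild type mice 3.21% rose and 1.91% fell, and with atrasentan against wild type 14.7% rose and 14.5% fell. These shares stand beside the counts of every list here, markers included.

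C3, on which the convertases act, and Cfb, the alternative pathway counterpart of C2, moved as C2 did. C3 fell by 2.36 on the log2 scale with atrasentan against saline (15.2 ± 8.88 CPM and 77.8 ± 48.8 CPM, SD, edgeR adjusted p = 0.000642). It rose by 2.44 in saline against wild type mice, at 14.3 ± 2.13 CPM (edgeR adjusted p = 0.0113). Cfb fell by 1.57 with atrasentan against saline (edgeR adjusted p = 0.00121) and had a log2 fold change of 1.44 in saline over wild type (edgeR adjusted p = 0.0258), a rise. By library Cfb was 2.49, 2.42, 2.38, 1.57, 1.93, 3.30 and 2.30 CPM with atrasentan, 11.2, 4.16, 10.03, 2.89 and 6.57 CPM with saline and 2.13, 2.35, 1.99, 4.38 and 2.03 CPM in wild type, with the same 3 saline libraries high as for C2. C3 and the listed genes after it summed to 152, 39.0, 119, 35.1 and 80.2 CPM in saline libraries 1 to 5, in the order of their proximal tubule markers. The part of tubule RNA in the C3 and Cfb results was not tested. The ratio of C2 to Cfb per kilobase was 0.194 to 0.632 with atrasentan, 0.641 to 0.816 with saline and 0.486 to 0.776 in wild type. C1rl, a relative of C1r, rose with atrasentan against wild type (log2 fold change 0.70, edgeR adjusted p = 0.00346).

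**Figure D5:**
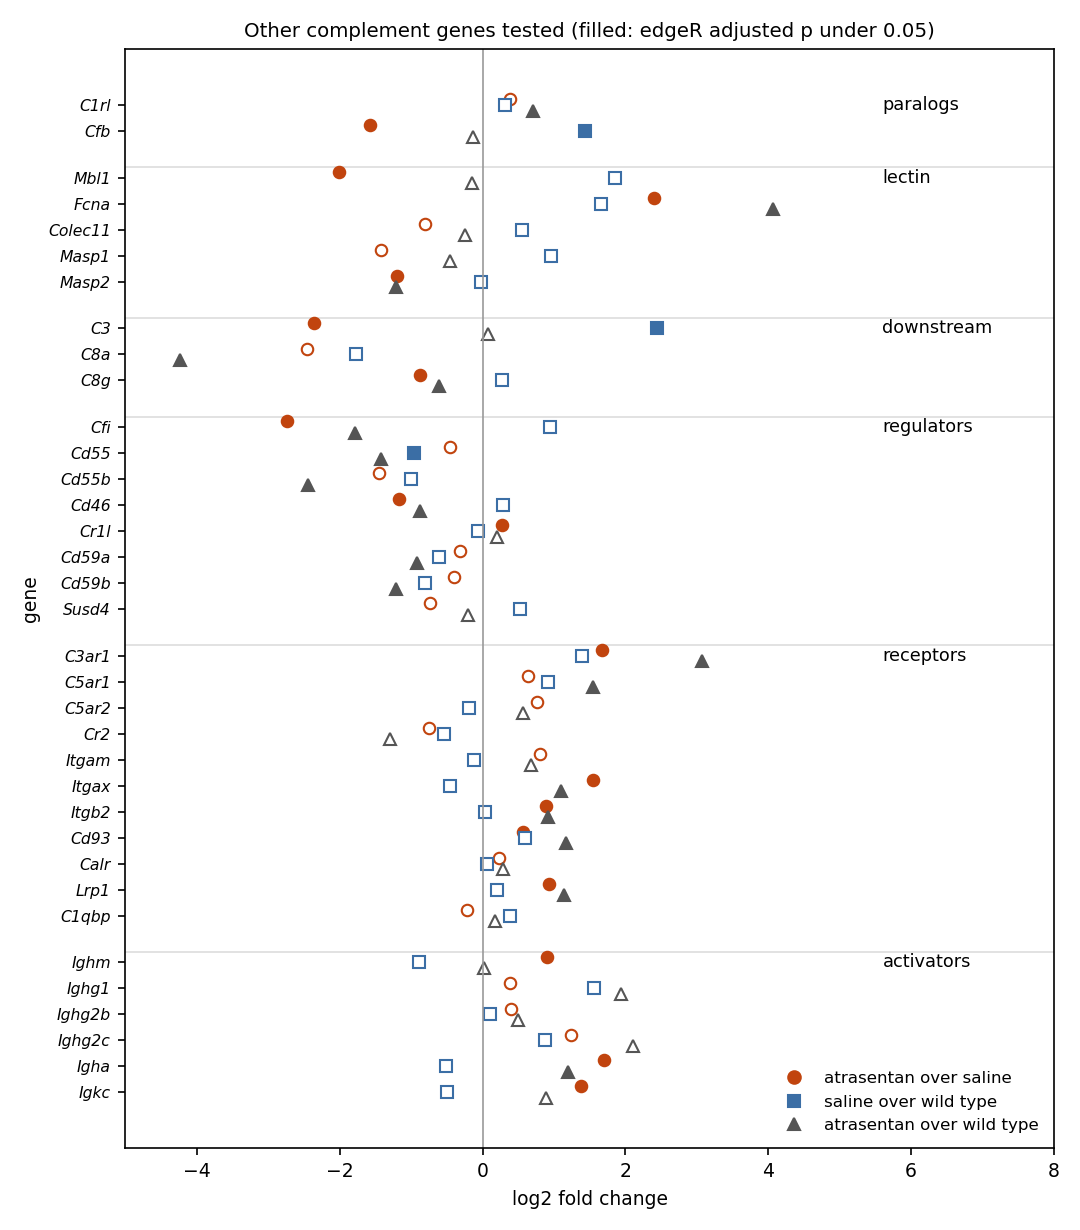
Log2 fold change of the 35 other complement genes tested, by role, for the 3 comparisons; filled points have an edgeR adjusted p under 0.05. Receptors that passed lie to the right of 0, and most regulators that passed lie to the left.

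In the lectin pathway, which starts from sugars in place of antibody, 1 of 5 genes tested rose and 2 fell with atrasentan against saline. Fcna, the macrophage ficolin of mice, rose to 3.19 ± 1.58 CPM with atrasentan, against 0.600 ± 0.176 CPM with saline and 0.185 ± 0.163 CPM in wild type (log2 fold changes 2.40 and 4.06, edgeR adjusted p = 0.00148 and 5.9e-05). Mbl1, a mannose-binding lectin, fell by 2.01 (edgeR adjusted p = 0.0413) and Masp2, the protease that cuts C4 and C2 in that pathway, fell by 1.20 (edgeR adjusted p = 0.017), both at under 1 CPM on average in every group. Masp2 also fell with atrasentan against wild type, by 1.22 (edgeR adjusted p = 0.0173). Of the 8 genes from C3 onward 3 could be tested. C8g, which encodes a chain of the membrane attack complex, fell by 0.88 with atrasentan against saline (edgeR adjusted p = 0.00394), and by 0.60 against wild type (edgeR adjusted p = 0.0346). C8a, another of its chains, fell by 4.24 against wild type at under 1 CPM (edgeR adjusted p = 0.00305). Hc, which encodes C5, was among the 5 too low to test. The part of any cell type in the lectin and membrane attack results was not tested.

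Most genes that hold complement in check fell with atrasentan against wild type. Of 8 regulators tested, 1 rose and 2 fell with atrasentan against saline, and 6 fell and none rose against wild type, where the podocyte markers fell as well (12 of 12, median log2 fold change -1.93). Proximal tubule markers fell in both comparisons, 12 of 12 against saline and 8 of 12 against wild type (medians -3.12 and -1.46), and the part of either cell type in the regulator results was not tested. Cd55, which speeds the decay of C3 convertases, had 26.5 ± 7.26 CPM with atrasentan, 36.5 ± 15.2 CPM with saline and 71.2 ± 19.1 CPM in wild type. It fell by 1.43 on the log2 scale with atrasentan against wild type (edgeR adjusted p = 0.000469) and by 0.96 with saline against wild type (edgeR adjusted p = 0.0496), just past the threshold. Cfi, the protease that inactivates the C3b and C4b fragments, fell by 2.74 with atrasentan against saline (edgeR adjusted p = 0.000982) and by 1.79 against wild type (edgeR adjusted p = 0.0144). Cd46, a cofactor of that protease, fell by 1.17 and 0.88 in the same comparisons (edgeR adjusted p = 0.00392 and 0.0221). Cd59a and Cd59b, which block the membrane attack complex, fell by 0.92 and 1.21 with atrasentan against wild type, and Cd55b by 2.44 at under 1 CPM (edgeR adjusted p = 0.00441, 0.00145 and 0.00608). Cr1l, the mouse regulator known as Crry, rose by 0.27 with atrasentan against saline (edgeR adjusted p = 0.0123). Susd4, the eighth, passed in no comparison, with log2 fold changes of -0.73 for atrasentan over saline, 0.53 for saline over wild type and -0.20 for atrasentan over wild type.

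Several receptors rose with atrasentan: of 11 tested, 5 rose and none fell against saline (median log2 fold change 0.76), 6 rose and none fell against wild type (0.92), and 0 were called in saline against wild type mice by edgeR, where 4 had an unadjusted p under 0.05. Macrophage markers rose beside them, 12 of 16 against saline and 10 of 16 against wild type (medians 1.24 and 1.17), and their part in the receptor results was not tested. C3ar1 rose by 1.68 against saline and 3.07 against wild type, at 6.58 ± 5.46 CPM with atrasentan, 2.05 ± 1.03 CPM with saline and 0.781 ± 0.180 CPM in wild type (edgeR adjusted p = 0.00805 and 0.00019). Itgax and Itgb2, the chains of complement receptor 4, rose by 1.55 and 0.88 against saline (edgeR adjusted p = 0.00455 and 0.02). Lrp1, an endocytic receptor, rose by 0.94 against saline, and Cd93, once described as a C1q receptor, by 0.57 (edgeR adjusted p = 0.00378 and 0.0143). C5ar1, a receptor for C5a, rose against wild type (log2 fold change 1.55, edgeR adjusted p = 0.00633), and its log2 fold change against saline was 0.63 (edgeR adjusted p = 0.198). The C1q-binding proteins Calr and C1qbp did not pass in any comparison, with log2 fold changes between -0.21 and 0.39.

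Antibodies, in the case of IgM and most IgG classes, can engage C1q. Of 10 antibody and pentraxin genes 6 could be tested, of which 3 rose and none fell with atrasentan against saline. Of these 3, only Ighm encodes the heavy chain of a class named above. Ighm rose by 0.91 (15.4 ± 4.39 CPM and 8.21 ± 3.31 CPM, SD, edgeR adjusted p = 0.0196), Igkc by 1.38 (edgeR adjusted p = 0.0115) and Igha by 1.70 (edgeR adjusted p = 0.00609). Against wild type the log2 fold change of Ighm was 0.02 (edgeR adjusted p = 0.959), and Igha alone rose, by 1.19 (edgeR adjusted p = 0.0395). The IgG genes Ighg1, Ighg2b and Ighg2c were tested and passed in no comparison. Their means were 5.29, 7.40 and 10.7 CPM with atrasentan and 4.06, 5.62 and 4.50 CPM with saline. Of 10 lymphocyte markers 4 rose and none fell with atrasentan against saline, at summed levels of 56.0 to 172 CPM with atrasentan, 22.8 to 59.7 CPM with saline and 40.0 to 126 CPM in wild type. The part of these cells in the antibody results was not tested.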

How the data were processed

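Poly(A) RNA was sequenced single-end from unstranded TruSeq libraries, per the labels' protocols. The authors deposited raw read counts per gene. A second table deposited by the authors holds normalized log2 values of 17338 genes; no source used here gives its transform, and it served 1 alternative. STAR, HTSeq, DESeq2, edgeR, limma and GRCm38 are listed, per the submitters' processing notes; no source used here gives their roles, their versions, the annotation or the strand setting. The 5 HTSeq lines naming no gene were left out. Per library, reads aligned to several places were 23.4% to 31.8% and ambiguous reads 2.93% to 3.37%. Reads outside genes were 3.17% to 5.65% with atrasentan, 5.95% to 8.17% with saline and 6.26% to 8.58% in wild type. Every atrasentan library thus lay below all others in that share, a difference between libraries that cannot be told apart from group.

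Symbols and coordinates (1-based) came from GENCODE M21 on GRCm38, which named 99.8% of gene IDs. The 41 pairs of libraries within groups differed by more than counting noise (chi-square per degree of freedom 17.4 to 176). With edgeR 4.0.16 (R 4.3.3), filterByExpr kept 17766 genes, TMM factors were 0.892 to 1.15, and 1 fit held all 17 libraries with no covariate (biological coefficient of variation 0.312). Tests were two-sided quasi-likelihood F tests, adjusted by Benjamini-Hochberg over all genes at 0.05, and checked on simulated counts. The SE is the log2 fold change over the square root of F. Log2 CPM used a prior count of 2. Alternatives were RLE and upper-quartile scaling, no filter, DESeq2 1.42.0, limma 3.58.1 with voom, 2 groups alone, limma on the deposited log2 values, 2 marker covariates, saline libraries 1 and 3 left out, and each library left out. The 8 genes, the marker and pathway lists and the rules were chosen with earlier results of these data known. Named beyond the 8 are pathway genes called in any comparison and the 3 or 5 genes most alike; a few others (Calr, C1qbp, Hc, Susd4, and example markers) and the motifs were chosen after values were seen.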

Additional observations from a re-analysis of the deposited data

Results flagged for a closer look

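Some libraries stood far from the rest of their group by Dixon's test at the 95% level, and 9 of 39 gene and group pairs were flagged. For normally distributed values chance would flag about 1 in 20 groups. The test was run on CPM without a log, and all 9 flagged values were the highest of their group, so that rate need not hold here. The pairs also share libraries and are not independent. In atrasentan library 3 C1qa was 170.5 CPM, C1qb 233 CPM and C1qc 218 CPM, each far above the other 6 libraries. C1ra was 33.9 CPM in wild type library 1, the highest of 5. In atrasentan library 6 C1rb was 31.2 CPM and C1s2 2.02 CPM. C1rb was 0.0788 CPM in saline library 1, where the other 4 saline libraries had no read. C4a was 0.552 CPM in saline library 1, and Cfb was 4.38 CPM in wild type library 4. The levels of C1rb, C1s2 and C4a are uncertain, because these genes share long stretches with C1ra, C1s1 and C4b.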

How the results depend on the processing

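Over 24 results on the 8 genes and 27 alternatives each, 607 of 648 values kept direction and side of the threshold, 29 lost the call, 9 gained it and 3 reversed; 10 results did not change under any alternative run. The 3 reversals came with the glomerular share as a covariate: C4b, atrasentan over saline, 0.47, C2, saline over wild type, -0.12 and Serping1, saline over wild type, -0.011 on the log2 scale, none passing the test there. C2, atrasentan over wild type, passed with that covariate (-1.16, adjusted p = 0.000523). The cause was not tested.

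Genes called for atrasentan over saline (6001) were 2577 without saline libraries 1 and 3, 1215 with the glomerular share and 1769 with the macrophage covariate, under which 3 of the 8 genes were called in place of 7. For atrasentan over wild type (5190) the macrophage covariate gave 2130. For saline over wild type (910) there were 1994 with DESeq2, 550 with limma-voom, 1430 with the 2 groups alone, 54 without saline libraries 1 and 3, 0 with the glomerular share (1381 at an unadjusted edgeR p under 0.05) and 216 to 1523 leaving out a library; of the 8 genes 2 were called, and 4, 0, 5, 0 and 0 in the same order and 0 to 5 leaving out a library. Of the 8 genes, 2 had an unadjusted p under 0.05 with limma-voom, 2 without saline libraries 1 and 3 and 0 with the glomerular share. Of the 8, 5 were called without atrasentan library 3, 1 without saline library 5 or wild type library 5, and 0 without saline library 1 or 3 or wild type library 1, 2 or 3.

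Limma-voom ended the saline over wild type calls of C4b and C2 (adjusted p = 0.0882 and 0.054). C4b, atrasentan over wild type, was lost with limma-voom (adjusted p = 0.147), the macrophage covariate (0.268) and the deposited log2 values (0.0537), and C1s1 with the macrophage covariate (0.328). Upper-quartile factors moved the share of calls that were higher from 62.6% to 51.0% for saline over wild type and from 50.5% to 37.6% for atrasentan over wild type, and limma-voom to 48.5% for saline over wild type. DESeq2 shifted the median of all genes by -0.12 for atrasentan over saline. Fold changes on the deposited log2 values were smaller, 1.98 to 2.12 for the C1q chains over saline. No paired analysis was possible because the labels give no replicate numbers shared between groups. C4b, C2 and the paralogs had few reads, which limits their precision.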
